A study of Mus musculus with 16 samples.

Results

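The immediate early genes Fos, Fosb, Jun, Junb, Atf3, Egr1, Nr4a1, Btg2, Ier2 and Dusp1 were followed across 16 microarrays of sorted mouse olfactory mucosa cells. The members were the probe sets whose platform symbol is 1 of these 10 names, and each name had 1 probe set, so 10 of the 19572 probe sets with a gene symbol were members. Immediate early genes are transcribed within minutes of a stimulus without new protein synthesis, through transcription factors such as SRF and CREB that are already present and are switched on by calcium and MAP kinase signalling. In neurons, Fos, Egr1 and their relatives are widely used as a record of recent electrical activity, and in olfactory tissue they have been used to mark sensory neurons that met an odorant. The same genes also respond to growth factors, to inflammation and to the dissociation of tissue into single cells.

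The mice carried the S100a5-tauGFP reporter, in which a green fluorescent tau fusion is read out with S100a5, a calcium-binding protein of olfactory sensory neurons whose level follows their activity. In all, 24 mice of both sexes, 7 to 12 weeks old, sat singly in clean air chambers for 40 h at 3.1 L per min. From 26 h on they received a 10 s pulse every 20 min of either filtered air (vehicle) or 100% citrus accord. The mucosa was dissected, dissociated and sorted by fluorescence into GFP-positive (GFP+) and GFP-negative (GFP-) cells, and each array held the cells of 3 pooled mice. This gave 4 groups of 4 arrays: vehicle GFP+, vehicle GFP-, citrus GFP+ and citrus GFP-. All groups carried the reporter and went through the chamber, dissociation and sorting, and no unsorted tissue is analysed here. The time from the last pulse to dissociation is not given in the sources used here, nor is the share of each sex per pool.

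Values are log2 expression as deposited, and a difference of 1 on this scale is called 1 log2 unit. The 95th percentile of the 5222 negative-control probe sets lay between 8.75 and 9.71 per array, and a value under the array's own percentile is called not above background here. Arrays of 1 group correlated at r = 0.985 to 0.992 over all genes. S100a5 itself ran from 16.74 to 17.53 in the GFP+ arrays and from 14.79 to 15.62 in the GFP- arrays, so the gate followed the labels. Omp, the olfactory marker protein of mature sensory neurons, lay between 18.83 and 19.42 on all 16 arrays: both gates held mature neurons. In such bulk samples, fewer cells of a type and less RNA per cell cannot be told apart.

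Promoter sequences are shown for Fos, Btg2, Junb and Dusp1, because these genes differed between the gates or varied together across pools in the results that follow. They are the 250 bases before the annotated start, read 5′ to 3′ on the gene's own strand, from RefSeq on mouse build GRCm38.p6. Capitals mark the motif TGACG read on the printed strand and, where its palindrome is complete, TGACGTCA, the letters of the cyclic AMP response element to which CREB and ATF proteins can bind. The Fos window is chr12:85473640-85473889 on the plus strand. The windows of Btg2 (chr1:134079156-134079405), Junb (chr8:84978749-84978998) and Dusp1 (chr17:26508473-26508722) lie on the minus strand.
Fos: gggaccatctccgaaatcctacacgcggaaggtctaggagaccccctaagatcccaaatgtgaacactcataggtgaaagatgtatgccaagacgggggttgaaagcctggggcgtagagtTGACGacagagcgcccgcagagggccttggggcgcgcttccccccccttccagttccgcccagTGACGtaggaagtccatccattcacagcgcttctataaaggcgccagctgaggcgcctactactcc
Btg2: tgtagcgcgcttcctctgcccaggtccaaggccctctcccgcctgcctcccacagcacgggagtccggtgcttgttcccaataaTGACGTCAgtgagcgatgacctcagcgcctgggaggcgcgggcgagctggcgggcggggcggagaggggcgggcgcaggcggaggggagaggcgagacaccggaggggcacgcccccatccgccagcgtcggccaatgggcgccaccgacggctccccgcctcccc
Junb: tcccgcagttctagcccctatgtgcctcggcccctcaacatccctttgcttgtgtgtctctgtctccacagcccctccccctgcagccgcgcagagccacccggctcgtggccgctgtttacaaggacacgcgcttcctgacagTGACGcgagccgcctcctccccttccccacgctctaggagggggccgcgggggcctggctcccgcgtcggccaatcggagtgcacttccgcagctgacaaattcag
Dusp1: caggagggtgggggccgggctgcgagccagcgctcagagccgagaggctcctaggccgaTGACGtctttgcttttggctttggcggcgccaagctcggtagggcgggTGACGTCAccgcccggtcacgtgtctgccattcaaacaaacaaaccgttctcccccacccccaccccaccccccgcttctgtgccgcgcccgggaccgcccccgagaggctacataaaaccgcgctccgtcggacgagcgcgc

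Of the 10 members, 8 had an entry among the RefSeq promoters, and Egr1 and Ier2 are named only. TGACG, searched on both strands, was in 7 of the 8 windows (Fos, Fosb, Junb, Atf3, Nr4a1, Btg2 and Dusp1) and not in that of Jun, against 17.8% of 32851 promoter windows of the same length. Among the other immediate early genes described later, 21 of 35 windows held it. Fos had it starting 129 and 66 bases before the start, and Junb 106 bases before it. Atf3 had it at 7, Fosb at 60 and Nr4a1 at 233, 213, 69 and 40 bases. The full TGACGTCA, which overlaps TGACG on both strands, was in Btg2 at 166 bases and in Dusp1 at 143 bases, against 1.55% of all windows. TATAAA was in the Fos window alone among the members (12.4% of all windows). Neither the AP-1 motif TGANTCA (6.75% of all windows) nor the CArG box of SRF (1.47%) was found in any of the 8 windows, which says only that these letters were not in these 250 bases. These matches are letters in a window and were not tested as binding sites.

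The first comparison sets GFP+ cells against GFP- cells within each stimulus. With vehicle, 5 of 10 members (Fos, Fosb, Junb, Egr1 and Btg2) were lower in GFP+ cells and 0 higher at an adjusted p under 0.05, against 9.97% of all probe sets called lower and 9.05% called higher. With citrus, Fos, Fosb, Junb, Egr1 and Btg2 were again lower and 0 of 10 were higher, against 10.8% lower and 7.44% higher among all probe sets. The difference (GFP+ minus GFP-) was negative for 10 of 10 members in each stimulus, with a median of -1.62 log2 units for vehicle and -1.30 for citrus, where the median over all probe sets was 0.11 and 0.13. All 4 GFP+ arrays lay below all 4 GFP- arrays for 6 members in each stimulus, against 9.96% of all probe sets with vehicle and 11% with citrus. Centring the arrays on the median of all genes turned the sign of Ier2 in vehicle to 0.18 and of Atf3 in citrus to 0.10, both without a call.

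**Figure D1:**
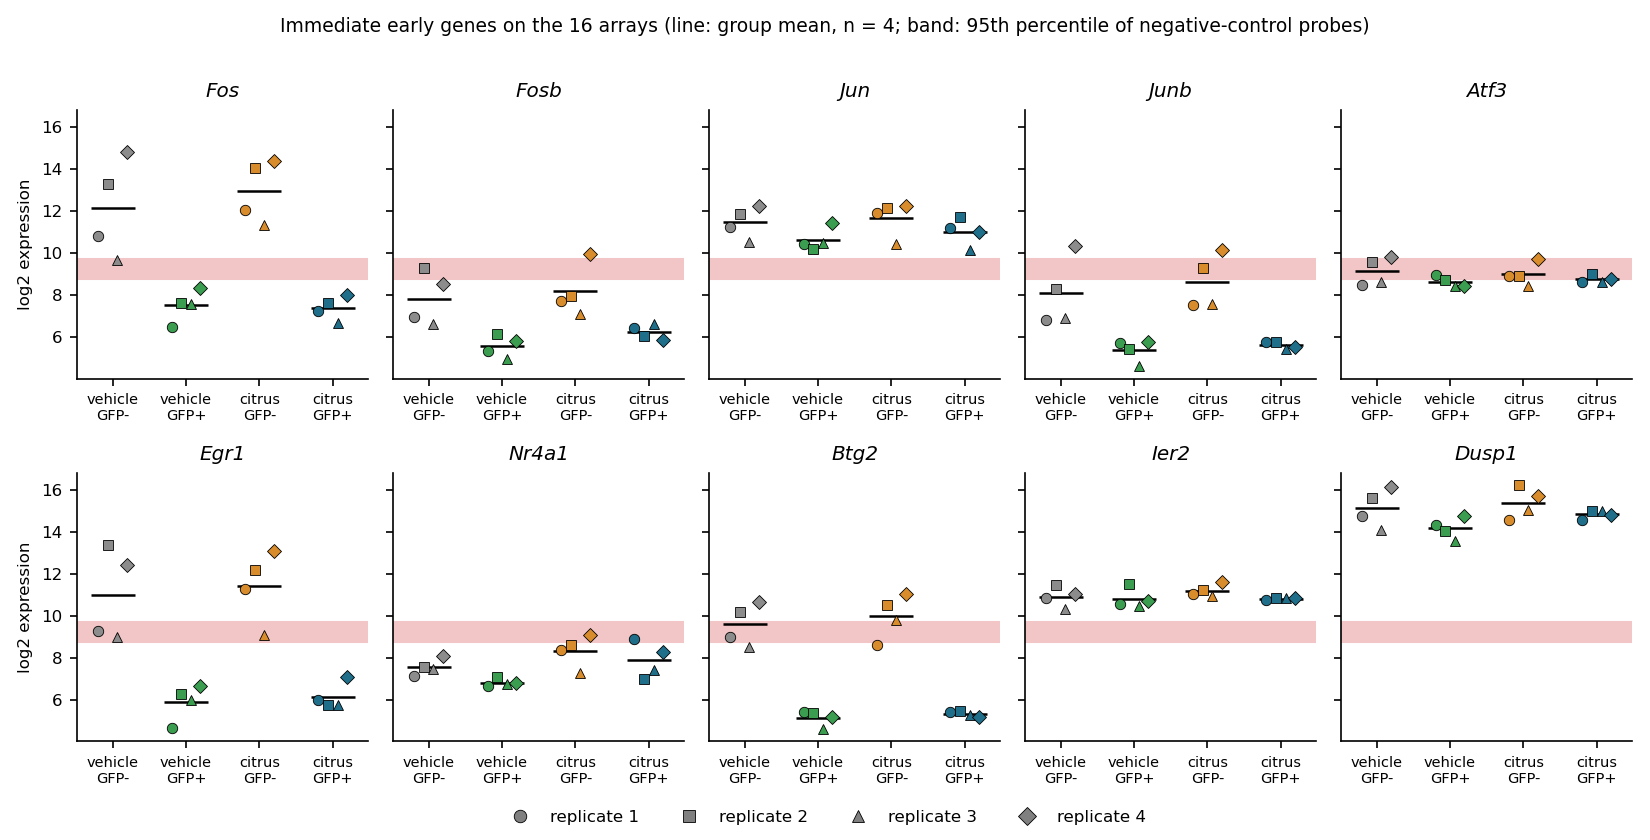
Log2 expression (y axis) of each member on the 16 arrays, by group (x axis), with 1 mark per array shaped by replicate number, a line at the group mean (n = 4) and a band over the range of the negative-control 95th percentile (8.75 to 9.71). Fos, Egr1 and Btg2 sit in or above the band in GFP- arrays, apart from Btg2 in replicates 3 (vehicle) and 1 (citrus), and below it in every GFP+ array; Jun, Ier2 and Dusp1 are above it in all groups.

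Among the AP-1 proteins, which pair as Fos-Jun dimers on DNA, Fos stood furthest apart. In vehicle GFP- cells Fos read 10.81, 13.27, 9.64 and 14.81 in replicates 1 to 4, and in vehicle GFP+ cells 6.49, 7.62, 7.56 and 8.34. With citrus it read 12.03, 14.02, 11.32 and 14.39 in GFP- cells and 7.22, 7.64, 6.69 and 7.98 in GFP+ cells. The gates did not overlap in either stimulus, and the 8 GFP- arrays were spread over several log2 units while the 8 GFP+ arrays were all under background. The fitted difference was -4.63 ± 0.88 (SE, n = 4 per group; limma adjusted p = 9.12e-04) with vehicle and -5.56 ± 0.88 (adjusted p = 1.29e-04) with citrus. Because GFP+ arrays gave only a bound, the Fos signal was at least 6.89-fold higher in GFP- cells with vehicle and at least 15.8-fold higher with citrus, taking background in place of the GFP+ value. The vehicle bound moved to 3.8-fold without replicate 4 and to 13.3-fold without replicate 3. The group means fell in the order citrus GFP- (12.94 ± 1.50, SD), vehicle GFP- (12.13 ± 2.34), vehicle GFP+ (7.50 ± 0.76) and citrus GFP+ (7.38 ± 0.56); the first pair and the last pair overlapped.

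Fosb, a Fos relative that also pairs with Jun proteins, read 6.94, 9.27, 6.61 and 8.50 in vehicle GFP- cells and 5.35, 6.14, 4.94 and 5.79 in vehicle GFP+ cells. With citrus it read 7.69, 7.95, 7.11 and 9.92 in GFP- cells and 6.44, 6.07, 6.62 and 5.88 in GFP+ cells. The gates did not overlap, but only 1 GFP- array per stimulus was above background, so no fold is given. The fitted difference was -2.28 ± 0.56 (limma adjusted p = 0.00811) with vehicle and -1.92 ± 0.56 (adjusted p = 0.0231) with citrus. Both calls depended on single pools: without vehicle replicate 4 the vehicle difference was -2.13 (adjusted p = 0.053). Without citrus replicate 2 the citrus difference was -1.93 (adjusted p = 0.0794) and without citrus replicate 4 it was -1.21 (adjusted p = 0.181).

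Junb, a Jun family protein that in many settings restrains Jun, read 6.82, 8.27, 6.89 and 10.31 in vehicle GFP- cells and 5.72, 5.44, 4.63 and 5.77 in vehicle GFP+ cells. With citrus it read 7.54, 9.29, 7.55 and 10.14 in GFP- cells and 5.76, 5.76, 5.45 and 5.53 in GFP+ cells. Its gates did not overlap either. The difference was -2.68 ± 0.65 (limma adjusted p = 0.00686) with vehicle and -3.00 ± 0.65 (adjusted p = 0.00252) with citrus. Only 1 vehicle and 2 citrus GFP- arrays were above background, which again allows no fold.

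Jun, the main partner of Fos, was above background on every array. It read 11.25, 11.85, 10.52 and 12.24 in vehicle GFP- cells and 10.42, 10.18, 10.49 and 11.42 in vehicle GFP+ cells. In citrus the Jun values were 11.90, 12.12, 10.42 and 12.24 in GFP- cells and 11.17, 11.69, 10.15 and 10.98 in GFP+ cells. The groups overlapped, yet within each of the 8 pools the GFP+ array was the lower; the vehicle pools differed by -1.67 to -0.04 log2 units. The unpaired difference was -0.84 ± 0.43 (limma adjusted p = 0.195) with vehicle and -0.68 ± 0.43 (adjusted p = 0.309) with citrus. With the pool as a block, Jun passed with vehicle (adjusted p = 0.0297) and not with citrus (adjusted p = 0.0726).

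Atf3, a stress-induced bZIP protein of the ATF/CREB family, lay close to background in every group. Its group means were 9.12 ± 0.66 (SD) in vehicle GFP- cells, 8.63 ± 0.24 in vehicle GFP+ cells, 8.98 ± 0.54 in citrus GFP- cells and 8.75 ± 0.19 in citrus GFP+ cells. All 4 groups overlapped, and only 1 or 2 arrays of each were above background. Neither the vehicle difference of -0.49 ± 0.29 (limma adjusted p = 0.262) nor the citrus difference of -0.22 ± 0.29 (adjusted p = 0.64) passed.

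Egr1, a zinc finger transcription factor, was also spread over several log2 units in GFP- cells. It read 9.28, 13.37, 8.98 and 12.40 in vehicle GFP- cells and 4.64, 6.26, 6.01 and 6.64 in vehicle GFP+ cells. In citrus its values were 11.30, 12.18, 9.06 and 13.09 in GFP- cells and 5.97, 5.76, 5.73 and 7.09 in GFP+ cells. No GFP+ array was above background, against 3 vehicle and 4 citrus GFP- arrays. The difference was -5.12 ± 0.90 (limma adjusted p = 4.45e-04) with vehicle and -5.27 ± 0.90 (adjusted p = 2.82e-04) with citrus. As a bound, the Egr1 signal was at least 3.16-fold higher in GFP- cells with vehicle (1.83-fold without replicate 2 and 5.5-fold without replicate 3) and at least 5.45-fold higher with citrus (8.92-fold without replicate 3).

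Nr4a1, an orphan nuclear receptor induced by calcium signals, was low throughout. It read 7.14, 7.57, 7.48 and 8.08 in vehicle GFP- cells and 6.64, 7.10, 6.77 and 6.78 in vehicle GFP+ cells, which did not overlap. In citrus GFP- cells it read 8.37, 8.59, 7.26 and 9.09, and in citrus GFP+ cells 8.89, 6.99, 7.40 and 8.27, which did. The gate difference was -0.74 ± 0.38 (limma adjusted p = 0.194) with vehicle and -0.44 ± 0.38 (adjusted p = 0.466) with citrus. Fitting only the 2 vehicle groups, which leaves Nr4a1 with the spread of those 8 arrays, brought the vehicle difference past the threshold (limma adjusted p = 0.034). Nr4a1 was under background on all 8 of those arrays, so that call compares low values and gives no size.

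Btg2, an antiproliferative protein that promotes mRNA deadenylation, gave the smallest p-values of the 10. It read 8.97, 10.20, 8.53 and 10.68 in vehicle GFP- cells against 5.43, 5.35, 4.60 and 5.17 in vehicle GFP+ cells. In citrus its values were 8.59, 10.50, 9.81 and 11.05 in GFP- cells against 5.43, 5.49, 5.27 and 5.20 in GFP+ cells. The lowest GFP- array (8.53 with vehicle, 8.59 with citrus) was far above the highest GFP+ array (5.43 and 5.49). The difference was -4.45 ± 0.46 (limma adjusted p = 1.37e-06) with vehicle and -4.64 ± 0.46 (adjusted p = 6.94e-07) with citrus. Because all GFP+ arrays and several GFP- arrays were under background, the bound was much smaller: at least 1.19-fold with vehicle and at least 2.03-fold with citrus. Without vehicle replicate 4 the GFP- mean was under background and left no vehicle bound.

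Dusp1, a phosphatase that switches off MAP kinases and so closes the feedback loop, was well above background everywhere. It read 14.72, 15.61, 14.09 and 16.11 in vehicle GFP- cells and 14.34, 14.03, 13.57 and 14.73 in vehicle GFP+ cells. With citrus it read 14.57, 16.23, 15.04 and 15.68 in GFP- cells and 14.56, 14.97, 14.98 and 14.79 in GFP+ cells. The groups overlapped, but the GFP+ array was the lower in all 8 pools. The difference was -0.97 ± 0.39 (limma adjusted p = 0.0972; 0.0207 with the pool as a block) with vehicle. With citrus it was -0.56 ± 0.39 (adjusted p = 0.362; 0.155 with the block).

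Ier2, a small nuclear protein of the early growth response, differed least of the 10 with vehicle. Its group means were 10.91 ± 0.48 (SD) in vehicle GFP- cells, 10.80 ± 0.47 in vehicle GFP+ cells, 11.20 ± 0.29 in citrus GFP- cells and 10.81 ± 0.06 in citrus GFP+ cells. The vehicle groups overlapped and differed by -0.10 ± 0.24 (limma adjusted p = 0.815), with a 95% interval from -0.61 to 0.41. The citrus groups did not overlap, the highest GFP+ array reading 10.86 and the lowest GFP- array 10.96, but the difference of -0.39 ± 0.24 did not pass (adjusted p = 0.301).

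**Figure D2:**
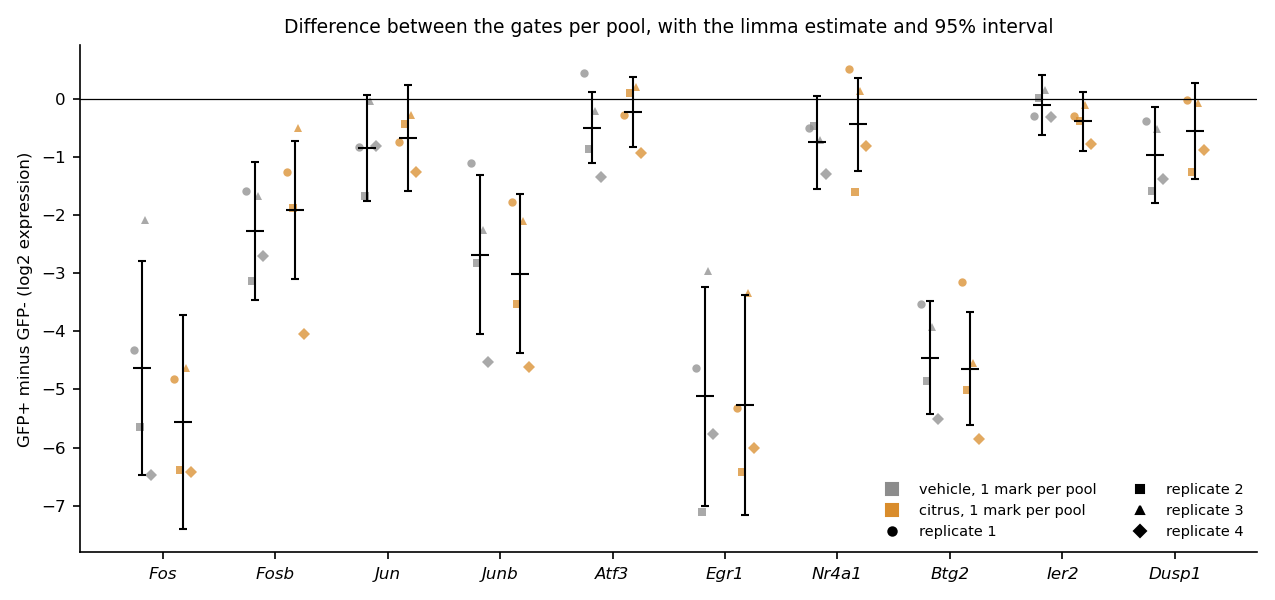
Difference between the GFP+ and GFP- array of each pool (y axis, log2 expression) for the 10 members (x axis), grey for vehicle and orange for citrus, with the limma estimate and its 95% interval in black. Fos, Fosb, Junb, Egr1 and Btg2 lie below 0 in all 8 pools, with intervals that exclude 0, as does that of Dusp1 with vehicle; Atf3 (both stimuli), Nr4a1 (citrus) and Ier2 (vehicle) have pools on both sides.

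The size of these differences rests on low values. Each value under its array's background was therefore raised to that background. With vehicle 3 members were then lower: Fos at -2.79 (limma adjusted p = 3.73e-04), Egr1 at -1.74 (adjusted p = 0.0389) and Dusp1 at -0.97 (adjusted p = 0.0213). Over all genes 488 of 19572 probe sets were lower. No Dusp1 value was raised, and its difference was the same without the floor, at a limma adjusted p of 0.0972. With citrus the lower members were Fos at -3.98 (limma adjusted p = 3.5e-07), Egr1 at -2.45 (adjusted p = 0.00137) and Btg2 at -1.11 (adjusted p = 0.00453), beside 561 of 19572 probe sets. Under such a floor all GFP+ values of Fos, Egr1 and Btg2 are background values. Their p-values therefore do not measure the spread of expression in GFP+ cells. The same floor called 13358 probe sets between citrus and vehicle in GFP+ cells. Raising low values to a common background instead (9.13, the mean of the 16 percentiles), an alternative chosen after seeing the data, left only Fos called, at -3.00 (adjusted p = 0.03) with vehicle and -3.81 (adjusted p = 0.00981) with citrus. Egr1 then differed by -1.91 (adjusted p = 0.143) and -2.29 (adjusted p = 0.0934), and Btg2 by -0.65 (adjusted p = 0.231) and -0.99 (adjusted p = 0.0831). Fos, Egr1 and Btg2 were above background in GFP- arrays alone, so a filter on background keeps them through the group in which they are high.

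Cell type markers moved with the gate. All 15 measured myeloid and lymphoid markers were lower in GFP+ cells with each stimulus, with a median difference of -5.91 with vehicle and -6.02 with citrus. Their log2 summed signal was 18.41 to 19.84 in GFP- arrays and 9.95 to 11.30 in GFP+ arrays, where 13 of 15 with vehicle and 14 of 15 with citrus were under background on every array. In GFP- cells 5 of 15 with vehicle and 3 of 15 with citrus were under background on every array. Retnlg, a resistin-like protein of neutrophils, was at least 156-fold higher in GFP- cells with vehicle and at least 210-fold higher with citrus. Ptprc, the pan-leukocyte antigen CD45, read 10.36 to 12.38 in GFP- cells and 4.83 to 5.78 in GFP+ cells. All 7 microvillous cell markers and all 5 progenitor markers were also lower in GFP+ cells in each stimulus, as were 5 of 9 immature neuron markers (6 with vehicle when the pool was a block). Of 9 sustentacular markers 2 were lower with vehicle and 3 with citrus (4 and 7 with the block), and of 7 Bowman gland markers 4 in each (5 and 4 with the block). Some of these unblocked calls had no GFP- array above background. In each stimulus they were 4 of the microvillous, 4 of the progenitor, 2 of the sustentacular and 1 of the Bowman gland calls. The 12 mature neuron markers had a median difference of 0.27 with vehicle and 0.28 with citrus, and 3 of them were higher in GFP+ cells in each stimulus (4 with the block). No marker of horizontal basal cells or of endothelium, stroma and glia was called, and all were under background on every array. The part of these cells in the members' difference was not tested.

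The other immediate early genes were 45 measured genes in 4 lists. Of them, 18 were lower and 0 higher in GFP+ cells with vehicle, and 21 were lower and 1 higher with citrus, with medians of -0.60 and -0.65 log2 units. With the pool as a block, 20 were lower and 1 higher with vehicle, and 21 and 2 with citrus. Most of these calls compare low values: 14 of the 18 and 15 of the 21 had no GFP- array above background, so for those only the call is given, without a size. Among 8 AP-1 and bZIP relatives, Cebpd, a C/EBP factor, and Fosl2, a Fos relative, were lower in each stimulus, and neither was above background on any array. Of 9 EGR, KLF and NR4A relatives, 3 were lower with vehicle and 4 with citrus (4 in each with the block). Egr2, the Egr1 paralogue, spanned 6.83 to 11.05 in vehicle GFP- cells and 7.57 to 11.75 in citrus GFP- cells, and lay between 5.94 and 6.58 in GFP+ cells. Its difference was -2.72 ± 0.86 (limma adjusted p = 0.0337) and -3.59 ± 0.86 (adjusted p = 0.00562), with a bound of at least 1.92-fold with citrus and none with vehicle. Klf6, a Krüppel-like factor, was at least 1.09-fold higher in GFP- cells with vehicle (adjusted p = 0.00291) and at least 1.66-fold with citrus (adjusted p = 0.00183).

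Among 12 neuronal activity effectors, 6 were lower with vehicle and 5 with citrus, where 1, Nptx2, was higher by 0.92 ± 0.27 (limma adjusted p = 0.0226). Nptx2 encodes a secreted pentraxin that gathers glutamate receptors at synapses, and it was above background on all 8 citrus arrays. The largest called differences were those of Rgs2, which shortens G-protein signals, Plk2, a polo-like kinase, and then Sik1, a salt-inducible kinase, with vehicle or Gadd45g, a growth arrest protein, with citrus. Rgs2 was above background on 1 vehicle and 2 citrus GFP- arrays, Plk2 on 0 and 1, and Sik1 and Gadd45g on 0, so none of them had a bound. In the list of 16 RNA decay, feedback and cytokine response genes, 7 were lower with vehicle and 10 with citrus (8 and 10 lower and 1 higher in each with the block). Zfp36, the mRNA-destabilising protein tristetraprolin, was at least 1.28-fold higher in GFP- cells with vehicle (adjusted p = 1.84e-05) and at least 2.14-fold with citrus (adjusted p = 9.92e-06). Next in size among the called genes were its relative Zfp36l1 and the transcription factor Myc with vehicle, and Myc and Ier3 with citrus; these 3 genes were under background on all 16 arrays.

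Of the factors and kinases that act upstream of the members, 16 were measured, and their median difference was -0.17 with vehicle and -0.10 with citrus, beside 0.11 and 0.13 for all genes. With vehicle 3 were lower in GFP+ cells: Mrtfb, an SRF coactivator, by -0.73 ± 0.21 (limma adjusted p = 0.0175), Elk4, an SRF partner, by -0.63 ± 0.19 (adjusted p = 0.0238), and Mapk14, the p38 kinase, whose GFP+ arrays were all under background (at least 1.04-fold higher in GFP- cells, adjusted p = 0.0315). With citrus Mapk14 passed in the unpaired fit (at least 1.57-fold, adjusted p = 7.74e-04). With the pool as a block, Mrtfa (adjusted p = 0.0285), Mrtfb (adjusted p = 0.0294) and Atf1 (adjusted p = 0.0353) were also lower with citrus, and Mapk8 was higher with vehicle (adjusted p = 0.0403). In contrast, 8 of 11 activity-linked sensory neuron genes were higher in GFP+ cells with vehicle and 7 with citrus, with medians of 1.38 and 1.61. Kirrel3, an adhesion molecule of axon sorting, was lower with citrus at -0.65 ± 0.21 (adjusted p = 0.0413). With the block 8 were higher and 2 lower with vehicle, and 9 higher and 1 lower with citrus. S100a5 was higher by 1.91 ± 0.13 and 1.88 ± 0.13. The list was drawn up around the reporter gene, and its direction is not independent of the gate.

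**Figure D3:**
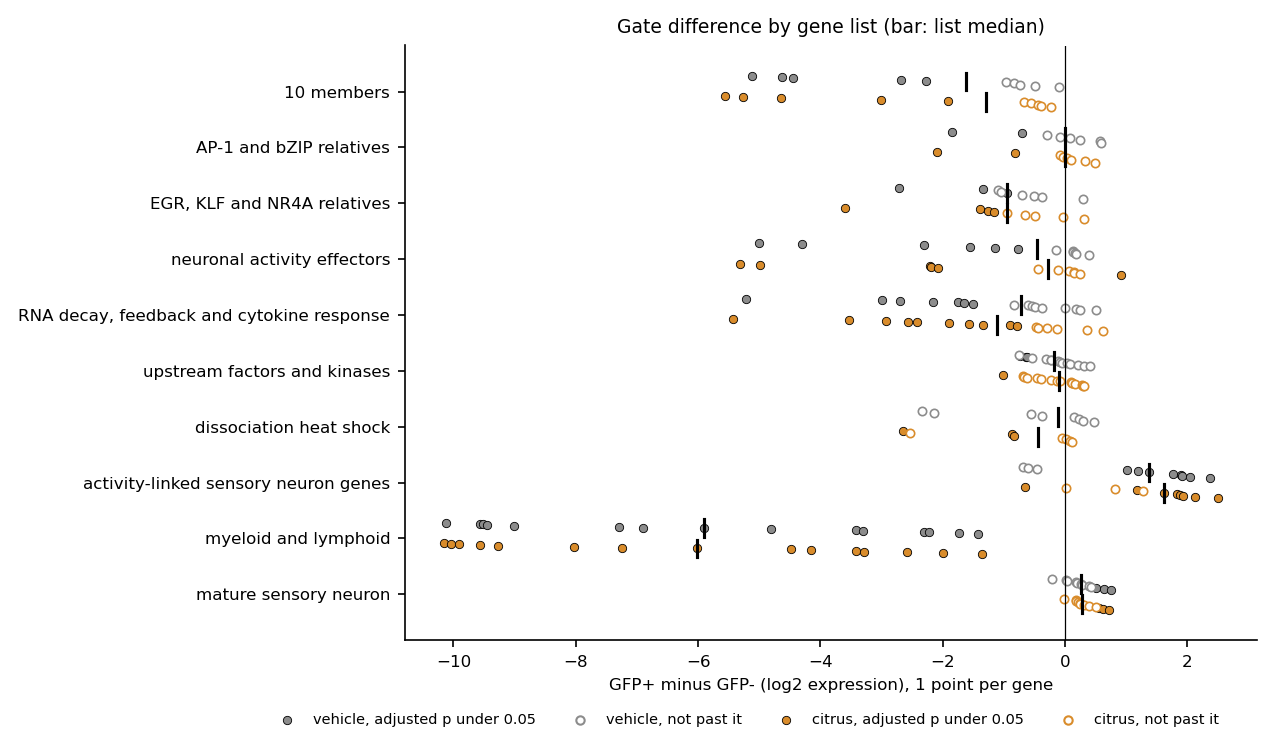
Gate difference (GFP+ minus GFP-, log2 expression, x axis) of each gene of the members and 9 other lists (y axis), grey for vehicle and orange for citrus, filled where the adjusted p was under 0.05, with a bar at each list's median. The member medians are -1.62 and -1.30, the myeloid and lymphoid medians -5.91 and -6.02, and the activity-linked medians 1.38 and 1.61.

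The second comparison sets citrus against vehicle within each gate. None of the 10 members passed: in GFP+ cells 0 of 10 were called, against 0.0204% of all probe sets called higher and 0% lower, and 1 of 10, Nr4a1, had an unadjusted p under 0.05. In GFP- cells 0 of 10 were called as well, against 0.0102% higher and 0.00511% lower, and 0 had an unadjusted p under 0.05. The citrus minus vehicle difference was positive for 9 of 10 members in each gate, against 51.4% and 52% of all probe sets. Its median over the members was 0.24 in GFP+ and 0.37 in GFP- cells, where the median of all probe sets was 0.01 in each. The members correlated with each other (mean r = 0.65 with group means removed), so their signs are not 10 separate observations. Leaving out 1 pool moved the GFP- median from -0.04 (without vehicle replicate 3) to 0.66 (without vehicle replicate 4). The GFP+ median moved over 0.17 to 0.43 with the same pools left out. For 0 of 10 members did the 4 citrus arrays lie wholly above or below the 4 vehicle arrays. Among all probe sets 1.26% lay wholly above and 1.47% wholly below in GFP+ cells, and 1.57% and 1.26% in GFP- cells.

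Nr4a1 in GFP+ cells had the largest difference, 1.07 ± 0.38 log2 units (95% interval 0.26 to 1.87; limma adjusted p = 0.999). Citrus replicates 1 and 4 (8.89 and 8.27) were above all vehicle arrays, replicate 3 (7.40) was too, and replicate 2 (6.99) lay within the vehicle range. Only replicate 1 was above background. In GFP- cells Nr4a1 differed by 0.76 ± 0.38 (adjusted p = 0.859). Raising low values on each array to that array's own background turned both signs, to -0.38 and -0.31; the mean background of GFP+ arrays was 8.96 with citrus and 9.35 with vehicle.

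Fosb followed with 0.70 ± 0.56 in GFP+ cells (95% interval -0.49 to 1.88; limma adjusted p = 0.999), where all its values were under background. Dusp1, above background on every array, differed by 0.66 ± 0.39 there (-0.17 to 1.48; adjusted p = 0.999). Fos differed by -0.12 in GFP+ cells (95% interval -1.97 to 1.72) and by 0.81 in GFP- cells (-1.04 to 2.66). Egr1 differed by 0.25 (-1.64 to 2.14) in GFP+ and 0.40 (-1.49 to 2.29) in GFP- cells. No citrus effect on Fos or Egr1 was detected. In GFP+ cells both genes were under background on every array, so those intervals do not measure a change in expression. The fit also uses 1 spread for all 4 groups. The SD of Fos was 0.76 (vehicle) and 0.56 (citrus) in GFP+ cells, against 2.34 and 1.50 in GFP- cells. The GFP- intervals leave room for sizeable changes either way. For Ier2 the interval was narrower, -0.50 to 0.52 in GFP+ cells and -0.22 to 0.80 in GFP- cells.

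**Figure D4:**
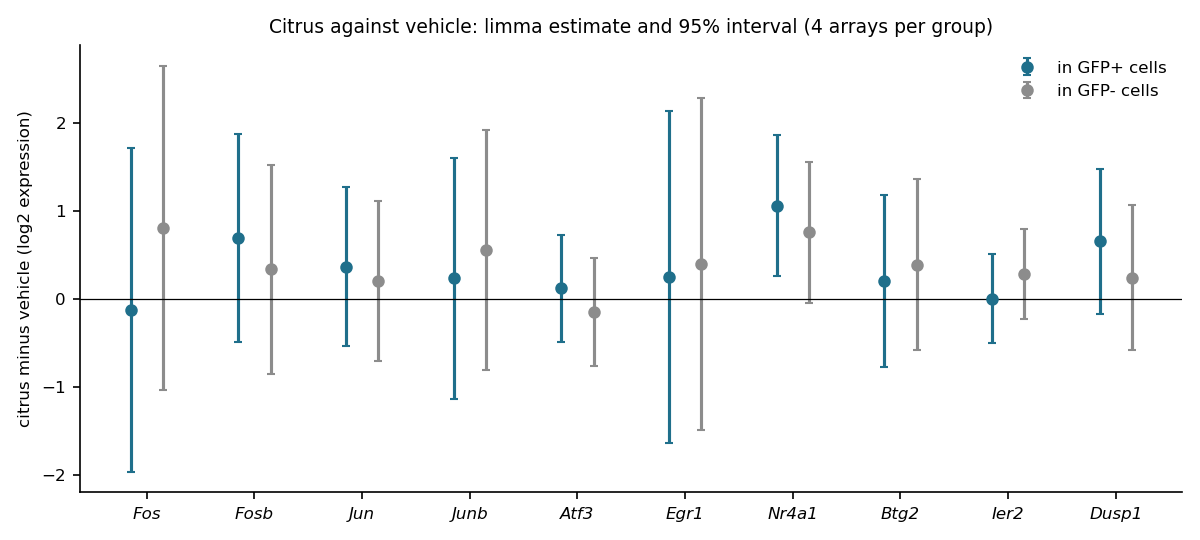
Citrus minus vehicle (y axis, log2 expression) for the 10 members (x axis) in GFP+ (blue) and GFP- cells (grey), as the limma estimate and its 95% interval from 4 arrays per group. All intervals include 0 except Nr4a1 in GFP+ cells (0.26 to 1.87), whose adjusted p was 0.999.

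No difference in the citrus effect between the gates was detected for any member. The difference of the effects (GFP+ minus GFP-) ran from -0.93 for Fos to 0.41 for Dusp1, with 0 of 10 called, 0 of 19572 probe sets called (0%), and limma adjusted p = 0.999 for each member. Among the 45 other immediate early genes, 0 were called for citrus in either gate; 4 in GFP+ and 6 in GFP- cells were higher at an unadjusted p under 0.05. In the same arrays the activity-linked genes Pcdh10, Sema7a and Camk2n1 rose with citrus in GFP+ cells, Sema7a by 1.46 ± 0.14 (limma adjusted p = 8.4e-05). Their list was chosen with earlier results of these data known, and the SE of Fos in that comparison was 0.88. Those calls therefore do not show what could be detected for the members.

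The third pattern lies within the groups. In GFP- cells the members varied together from pool to pool: replicate 4 was the highest array for 7 of 10 members with vehicle and 9 of 10 with citrus, and replicate 3 was the lowest for 7 of 10 in each. Averaged over the members, vehicle GFP- replicates 1 to 4 deviated from their group mean by -0.76, 0.76, -1.12 and 1.11 log2 units, and citrus GFP- replicates by -0.48, 0.43, -0.98 and 1.02. Replicate numbers do not tie vehicle pools to citrus pools in the labels. With group means removed, citrus arrays numbered 1, 3 and 4 were most like the vehicle array of their own number in each gate. Those numbered 2 were not. The GFP+ arrays deviated less, by -0.20, 0.18, -0.31 and 0.33 with vehicle and 0.08, 0.02, -0.23 and 0.13 with citrus. Fos in vehicle GFP- cells, at 9.64 in replicate 3 and 14.81 in replicate 4, spanned 5.17 log2 units within 1 group.

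After the group means were removed, the 45 pairs of members correlated at r = 0.21 to 0.90 over the 16 arrays, with a median of 0.64. The mean was 0.65, against 0.0016 over all pairs of probe sets and 0.03 over those above background. Junb with Btg2 and Fos with Egr1 were the closest pairs (both 0.90), and Dusp1 with Nr4a1 the loosest (0.21). In the 8 GFP- arrays the median r was 0.78 and the lowest 0.48, and in the 8 GFP+ arrays, where most members were under background, the median was 0.15 and the lowest -0.49. The arrays of each gate share their sort, so these are descriptions of these libraries.

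**Figure D5:**
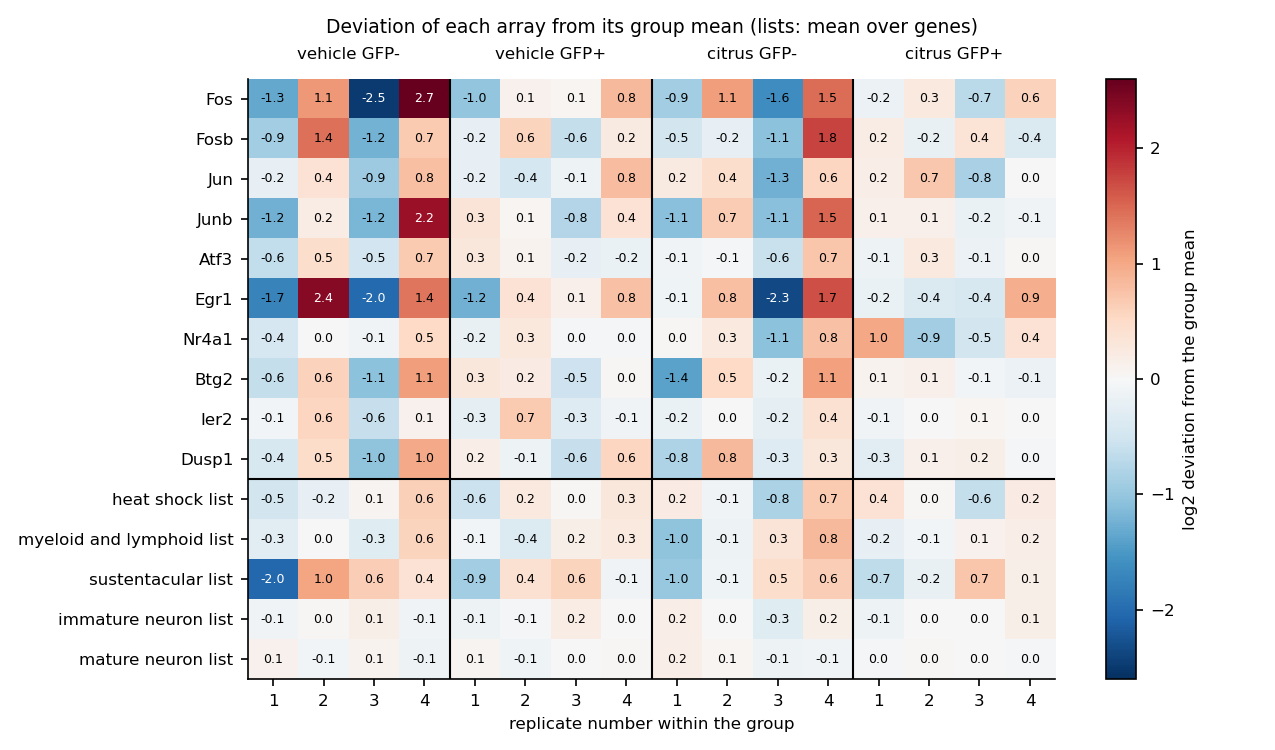
Deviation of each array from its group mean (colour and printed value, log2 units) for the 10 members and, under the line, the mean over the genes of 5 marker lists (y axis), by group and replicate (x axis). In GFP- cells replicate 4 is red and replicate 3 blue for most members, while the mature neuron list stays within 0.2 of its mean.

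Values of other lists in the same arrays are given beside this. The 8 measured heat shock genes of dissociated tissue averaged 10.29, 10.57, 10.85 and 11.40 in vehicle GFP- replicates 1 to 4 and 11.62, 11.31, 10.58 and 12.08 in citrus GFP- replicates. Hspa1a, the inducible HSP70, read 11.62, 12.67, 13.28 and 15.08 and then 15.13, 14.81, 12.40 and 16.03 in the same arrays. Replicate 4 was thus the highest for heat shock genes and members alike, and replicate 3 the lowest for both with citrus but not with vehicle. The 15 myeloid and lymphoid markers averaged 11.22, 11.52, 11.20 and 12.09 with vehicle and 10.64, 11.54, 12.02 and 12.53 with citrus, and replicate 4 was again the highest. Whether handling or cell mixture had a part in the members' spread was not tested.

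The genes outside the members whose pattern was most like the members' mean, among 5508 probe sets with a mean above background and over 16 arrays with group means removed, were Ube2d3 (r = 0.94), Abi1 (0.86), Slain2 (0.86), Mcl1 (0.86), Sf3b1 (0.82), Slc38a2 (0.82), Nfrkb (0.82) and Dcun1d1 (0.81). Their own spread was smaller than that of the members: Ube2d3, a ubiquitin-conjugating enzyme, read 15.10 to 15.61 in vehicle GFP- cells, and Mcl1, an anti-apoptotic BCL2 family protein, 11.07 to 12.50. The heat shock list was split: Dnajb1, a co-chaperone, ranked 19th at r = 0.76, with Hspa1b at 0.62 and Hspa1a at 0.60, while Hsph1 (0.03), Hsp90aa1 (-0.09), Hspe1 (-0.16) and Hspd1 (-0.28) did not follow the members. Of the 8 measured heat shock genes, 0 were called between the gates with vehicle and 3 were lower in GFP+ cells with citrus (Hspa1a, Dnajb1 and Hspb1, the last under background on all 16 arrays). With the pool as a block 2 were lower and 1 higher with vehicle, and 4 lower with citrus.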

How the data were processed

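Clariom S mouse arrays (16) measured sorted-cell RNA, 1 array for the cells of a pool of 3 mice, and 50 to 100 ng of RNA was labelled per the labels' protocols. The authors deposited gene-level log2 values that a label describes as SST-RMA; the submitters' processing notes name Affymetrix Expression Console as the tool. The version and build stay unnamed (not given in the sources used here). The transformation in it can stretch the scale, so log2 differences need not equal ratios of RNA. The table held 28846 probe sets, of which 19572 had 1 symbol and 0 had several, and 0 columns of other samples.

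Deposited values were used unchanged. A limma model (limma 3.58.1, R 4.3.3) with 1 mean per group was fitted to all 19572 probe sets with eBayes, and the Benjamini-Hochberg adjustment ran over all of them, with a threshold of 0.05. Figures were drawn with matplotlib 3.10.9. The fit was tested on simulated data. The number of arrays limits the precision. Nothing in the labels or headers separates the arrays into batches. The 4 arrays of a group were taken as 4 separate pools. In the main fit, p-values rest on the spread of arrays within groups, with 1 spread per gene over all 4 groups. Its gate comparisons are unpaired, and only the fit with the pool as a block uses differences within pools.

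The labels give 24 mice in 8 pools of 3, so the GFP+ and GFP- array of 1 number and stimulus were taken as 1 pool. Residuals of such arrays correlated at r = 0.08 to 0.27 over all genes, and each GFP+ array correlated best with its own GFP- array; blocked values are printed for members and list counts where they change a call. The members and gene lists were chosen with earlier results of these data known. Named genes were all 10 members, from every other list up to 3 past the threshold with the largest differences per direction (marker lists are given by counts, the myeloid and lymphoid list also by 1 leading gene), and the 8 genes most like the members' mean; Ptprc, Mrtfa, Atf1, Mapk8 and the heat shock genes by likeness were added after their values were seen. Bounds replace a mean under background by the negative-control 95th percentile; a fold is then the higher group's mean over that floor.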

Additional observations from a re-analysis of the deposited data

Results flagged for a closer look

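In the 40 sets of 4 arrays (10 members in 4 groups), 0 held an array set apart from the rest by Dixon's 95% critical value, and no member had a citrus effect that differed between the gates by the interaction test.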

How the results depend on the processing

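Each comparison was recomputed under other scalings, floors, filters, priors and array weights, with the pool or the number as a block, and without each pool in turn. The count of members lower in GFP+ cells, 5 in each stimulus, became 9 with vehicle when arrays were centred on mature neuron markers, 3 in each stimulus when values were floored at each array's background or filtered to probe sets above it, and 1 in each with the common floor, which was chosen after seeing the data. The floors raise the low GFP+ values by construction, and the members called changed with them. Under the array floor they were Fos, Egr1 and Dusp1 with vehicle, and Fos, Egr1 and Btg2 with citrus. No Dusp1 value was under background, so the floor raised none of them. Over all genes the array floor called 488 of 19572 lower with vehicle and 561 with citrus. The common floor called 545 of 6867 lower with vehicle and 534 with citrus. The filter leaves out Fosb, Junb and Nr4a1 and keeps Fos, Egr1 and Btg2 through their GFP- arrays, so its count is no support. Of the 6364 probe sets it kept, 706 were lower with vehicle and 657 with citrus. Those centrings moved the median of all genes from 0.11 to 0.39 (all-gene median) or -0.30 (neuron markers) with vehicle, and from 0.13 to 0.46 or -0.33 with citrus, and the split of calls over all genes from 1771 higher and 1952 lower to 7080 and 1555 or 461 and 4798 with vehicle, and from 1457 and 2112 to 9128 and 1711 or 483 and 5281 with citrus. Leaving out 1 pool gave 4 to 5 lower members in each stimulus.

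With the pool as a replicate block, 7 members were lower with vehicle and 5 with citrus. Jun and Dusp1 were the added calls, and no other member's call changed. Over all 19572 probe sets that block called 2103 lower with vehicle and 2256 with citrus, against 1952 and 2112 without it. With citrus and vehicle arrays blocked by number, 3 genes in GFP+ and 2 in GFP- cells were called, against 4 and 3 without that block. Of the members, 0 were called in each gate. The labels do not pair these arrays, which correlated at r = -0.01 to 0.35 after group means were removed. For numbers 1, 3 and 4 the best match was the array of the same number in both gates, and for number 2 in neither. What arrays of 1 number share was not tested.

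Citrus against vehicle in GFP+ cells gave 1 member higher (Dusp1) and 1 lower (Nr4a1) with the floor at each array's background. There 13358 of all probe sets were called, 13211 of them lower and 147 higher, with a median difference of -0.38 over all genes. Nr4a1 differed by -0.38, and Dusp1 by 0.66 both with and without the floor. The background to which values were raised averaged 8.96 with citrus and 9.35 with vehicle. Directions turned for members without a call. Centring on all genes turned Ier2 in the vehicle gate (0.18), Atf3 in the citrus gate (0.10) and Ier2 with citrus in GFP+ cells (-0.0031), where quantile normalization gave -0.0258. The array floor turned Fosb in the vehicle gate (0.0544), Nr4a1 in the citrus gate (0.0022), Atf3 and Nr4a1 with citrus in GFP+ cells (both -0.38), and Fosb (-0.12), Junb (-0.20) and Nr4a1 (-0.31) in GFP- cells, where the common floor gave Junb -0.0033. Among these, Fosb in the vehicle gate was called without the floor; for the rest the cause was not tested, beyond the unequal background that the array floor brings in.

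Leaving out 1 pool moved Atf3 in the citrus gate over -0.37 to 0.0094. The citrus difference in GFP+ cells moved over -0.46 to 0.16 for Fos, -0.17 to 0.50 for Egr1, -0.0194 to 0.36 for Junb and -0.11 to 0.23 for Ier2. In GFP- cells it moved over -0.0208 to 1.70 for Fos, -0.25 to 0.82 for Fosb, -0.11 to 0.62 for Jun, -0.27 to 1.19 for Egr1, -0.39 to 0.078 for Atf3 and -0.10 to 0.57 for Dusp1. None of these was called in any of these fits.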
